A study of Mus musculus with 2 samples.

Results

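Potassium channel subunits are the 94 genes, of 32813 gene symbols in the table, whose symbol starts with Kcn followed by a letter of a family. Antisense transcripts of these genes are not members. The rule uses the symbol and no measured level. The members are 67 pore-forming subunits, 10 silent modifiers of voltage-gated channels, and 17 auxiliary or regulatory subunits, and GENCODE M21 on GRCm38 (mm10) annotates all 94 as protein-coding. The study measured RNA in 1 group, bipolar cells of type 5 from mouse retina, which is a cone bipolar class of the ON pathway. Retinas of the Htr3a-GFP line were dissociated and cells sorted by fluorescence, so the Htr3a promoter, which drives the green protein, chose the cells. The 2 libraries hold total RNA and are biological replicates per the design text, numbered 1 and 2. No treatment, other cell type or control population belongs to the group, while sex, age and number of animals per library stay unknown, as not given in the sources used here.

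Potassium channels let potassium leave a cell and so set its resting voltage and end its depolarisation. Bipolar cells signal mostly with graded voltage changes, and their potassium conductances shape how large and how long a light response is. Voltage-gated subunits (Kv1 to Kv4, KCNQ, and the EAG, ERG and ELK groups) form pores of 4 subunits, and the silent modifiers enter a pore only together with a Kv2 subunit. Inward rectifiers and two-pore-domain channels carry current near rest, and channels such as BK and SK open with intracellular calcium.

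The labelled cell type was checked first. All 8 genes of a list of type 5 and ON bipolar markers passed the test for a level above 1 in transcripts-per-million units (TPM). Among them were Htr3a, on which the sort rests, and Kcng4, itself a member. The list also holds markers of ON bipolar cells, so passing it does not single out type 5. Of all genes above 0, 55.5% passed the same test, and the pass counts below stand beside that share. That share leaves out genes at 0 in both libraries, whereas the marker and family lists below can hold such genes. Above 0 in at least 1 library were 4 of 10 silent modifiers, 13 of 15 inward rectifiers and 7 of 14 two-pore-domain subunits. Some genes listed as markers of other retinal cells passed as well. Of 10 rod photoreceptor markers 8 passed, with a summed level of 1611 TPM in replicate 1 and 1665 in replicate 2 and no marker at 0 in both. Muller glia markers passed in 5 of 8 cases, with sums of 192 and 290 TPM, most of it from Glul and Clu. Cone markers passed in 2 of 8 cases (189 and 43.7 TPM), most of it from Gnat2 (86 and 23.3) and Gngt2 (83.05 and 12.3). Amacrine markers passed in 2 of 8 cases (60.4 and 95.3 TPM, Chat at 0 in both). Ganglion cell markers passed in 1 of 8 cases (31.8 and 72.96 TPM), most of it from Thy1 (28.3 and 63.9). Nefm, Pou4f2 and Sncg were at 0 in both. The Muller glia count lies near the 55.5% of all genes, and the cone, amacrine and ganglion cell counts lie under it. No rod bipolar, OFF bipolar, horizontal, vascular or pigment epithelium marker passed (0 of 23 by limma, 2 at an unadjusted p under 0.05, and 0 to 4 in other limma settings). The highest value among these 23 genes was 9.28 TPM. Each value below is thus a level in the sorted sample. In such bulk RNA a smaller number of cells of a type and less RNA per cell cannot be told apart.

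Promoter sequence is shown for the 3 most abundant members that have an entry in the RefSeq promoter table for GRCm38.p6, and for Kcna5, the most abundant Kv1 gene. They show that high level went with unlike base composition. The 250 bases before each RefSeq start site are given 5′ to 3′ on the gene's strand, with CG dinucleotides in capitals.
Kcng4 (chr8:119635681-119635930, minus strand): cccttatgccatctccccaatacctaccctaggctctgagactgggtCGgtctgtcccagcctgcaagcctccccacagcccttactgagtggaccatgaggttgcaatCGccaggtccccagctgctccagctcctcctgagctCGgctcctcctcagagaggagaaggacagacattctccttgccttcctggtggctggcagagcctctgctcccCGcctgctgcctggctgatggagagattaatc
Kcnh6 (chr11:106007898-106008147, plus strand): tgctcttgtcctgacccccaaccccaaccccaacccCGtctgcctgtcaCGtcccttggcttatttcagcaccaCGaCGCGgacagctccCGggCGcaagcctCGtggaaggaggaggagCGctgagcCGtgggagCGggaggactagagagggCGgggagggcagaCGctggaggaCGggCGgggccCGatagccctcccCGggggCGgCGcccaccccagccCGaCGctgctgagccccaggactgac
Kcnma1 (chr14:24004206-24004455, minus strand): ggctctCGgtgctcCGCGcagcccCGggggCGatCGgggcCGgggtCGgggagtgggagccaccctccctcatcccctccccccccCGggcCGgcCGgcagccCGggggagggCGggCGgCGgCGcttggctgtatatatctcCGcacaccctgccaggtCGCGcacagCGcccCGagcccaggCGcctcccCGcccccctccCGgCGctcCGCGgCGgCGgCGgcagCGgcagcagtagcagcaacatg
Kcna5 (chr6:126535556-126535805, minus strand): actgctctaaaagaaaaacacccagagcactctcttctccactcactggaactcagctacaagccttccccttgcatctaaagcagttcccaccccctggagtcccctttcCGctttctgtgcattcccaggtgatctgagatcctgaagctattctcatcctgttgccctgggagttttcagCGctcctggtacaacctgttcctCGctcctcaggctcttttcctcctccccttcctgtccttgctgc

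The stretch before Kcng4 held 4 CG dinucleotides and that before Kcna5 held 3, against 21 before Kcnh6 and 31 before Kcnma1. The RefSeq start used for Kcnma1 lies 10286 bases inside the GENCODE gene, whose own 5′ end was not examined. Promoter windows of 300 bases, 250 before and 50 after the start, were found for 69 of 94 members, 94 windows in all. Their median number of CG dinucleotides was 9, against 13 over all 21176 windows of genes in the table. Members with a mean of at least 10 TPM had a median of 7.5 CG over 26 windows, and members listed at 0 in both libraries had 10.5 over 20 windows. The quartiles of these sets overlap widely (4.25 to 24.75 against 7.75 to 21), some genes have several windows, and no test was made. Among all genes the medians were 21 for genes of at least 10 TPM and 3 for genes at 0.

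The letters TAATCC, the core that OTX and CRX homeodomain proteins of photoreceptors and bipolar cells are known to bind, were searched on both strands. They occurred in 3 of the 94 member windows (3.19%), against 6.58% of all windows. The 3 matches are shown with 12 bases on either side, or the reverse complement of the core where the match lies on the other strand, with the core in capitals.
Kcng4 (chr8:119635668-119635697, minus strand): tgatggagagatTAATCCtaagcccttcct
Kcnj9 (chr1:172329402-172329431, minus strand): gctgtggcgtgtGGATTAgccagagtggta
Kcnrg (chr14:61607408-61607437, plus strand): tcccctgtttccTAATCCtatataacatgg
In Kcng4 the match begins 5 bases before the start site, in Kcnrg 37 and in Kcnj9 97. A match is a run of letters and no measured site.

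Of the 94 members, 71 were above 0 in at least 1 library and 23 were listed at 0 in both, a share of 24.5% against 27.1% of protein-coding symbols and 39.1% of all symbols. A level above 1 TPM was called for 33 of the 71 members (46.5%) and above 10 TPM for 18 (25.4%; one-sided limma fit with p adjusted by Benjamini-Hochberg over 19968 genes). The background is 55.5% of all genes above 0 called over 1 TPM and 32.4% over 10 TPM. For protein-coding genes the shares are 61.5% and 37.8%. The members' shares lie under these backgrounds, and the difference was not tested. The median member above 0 stood at 2.56 on the log2(TPM + 1) scale, and the median of all genes above 0 at 3.22. Counted without a test, 42 members reached 1 TPM in both libraries, where 67.6% of all genes above 0 did, and 26 reached 10 TPM in both, where 41.3% did. In replicate 1 alone 45 members reached 1 TPM, and in replicate 2 alone 49. The variance used in the calls was that of genes of like abundance, so a member's own disagreement between libraries did not enter its call. Of the 33 members, 27 were called above 1 TPM in each of 9 limma settings, and Kcnj13, Kcna3, Kcnd1, Kcnmb4, Kcnip3 and Kcnn1 were not.

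**Figure D1:**
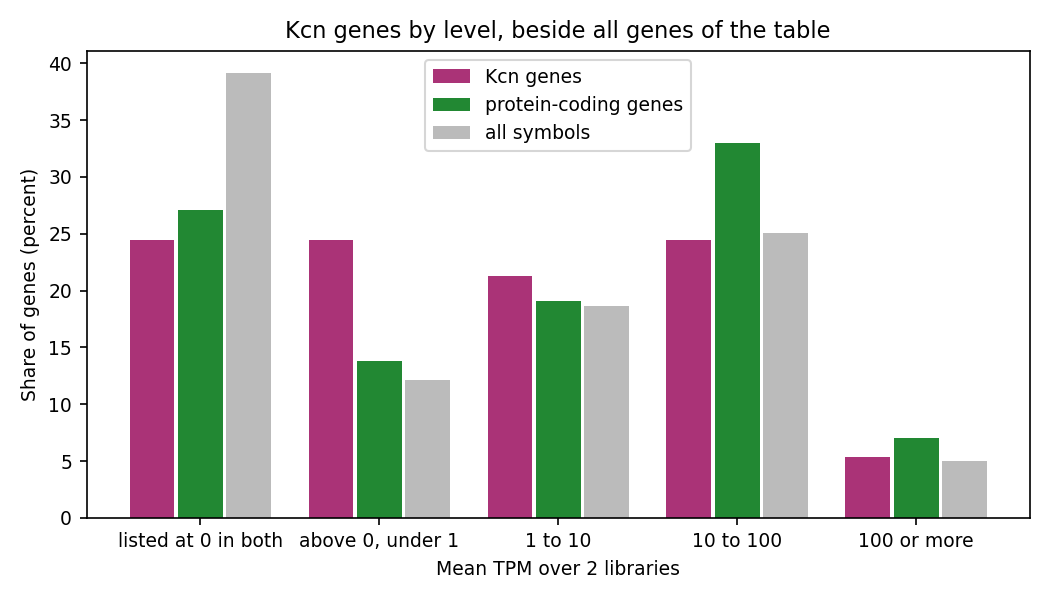
Share of genes (percent, vertical axis) in 5 classes of mean TPM over 2 libraries, for the 94 Kcn genes, protein-coding genes and all symbols of the table. Kcn genes fill the class above 0 and under 1 TPM with 24.5%, where protein-coding genes have 13.8%, and the class of 10 to 100 TPM with 24.5%, where protein-coding genes have 33.0%.

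A few members carried most of the potassium channel RNA. The summed TPM of the 94 genes was 1968 in replicate 1 and 1951 in replicate 2. Kcng4, Kcnh6, Kcnma1 and Kcnb2 together held 45.5% of it in replicate 1 and 46.2% in replicate 2, and the 10 most abundant members 69.4% and 70.4%. These 4 genes were the highest members in both libraries. Below them stood Kcnj14 and Kcna5, and no other member reached a mean of 90 TPM. By family, the calcium- and sodium-activated subunits held 15.2% ± 1.48 (SD, n = 2) of the summed TPM, the EAG, ERG and ELK subunits 14.6% ± 1.82, the silent modifiers 14.4% ± 3.59 and the inward rectifiers 11.1% ± 0.261. Kv1 subunits held 10.7% ± 1.13 and Kv2 subunits 10.2% ± 0.920. KCNQ subunits and auxiliary subunits held 7.28% ± 1.94 and 7.30% ± 0.532. Two-pore-domain subunits held 4.54% ± 0.0101, Kv4 subunits 2.41% ± 0.549 and Kv3 subunits 2.29% ± 0.114.

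**Figure D2:**
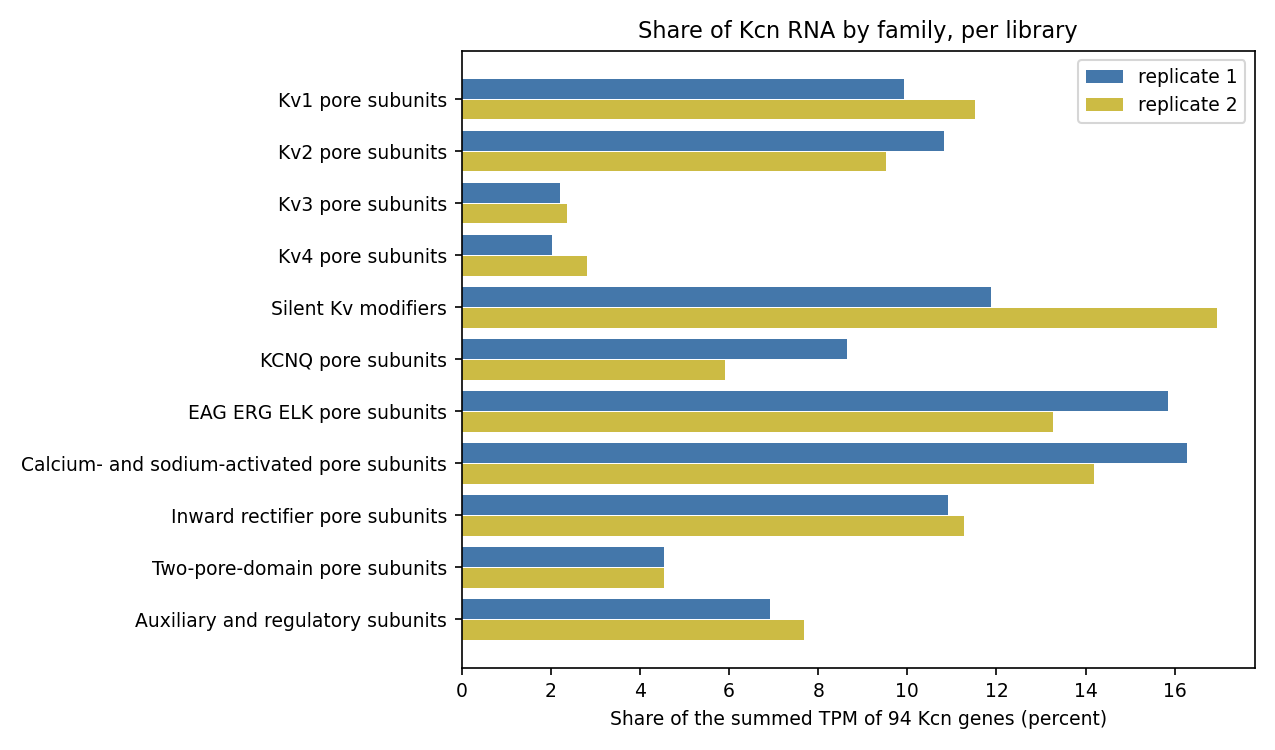
Share of the summed TPM of all Kcn genes (percent, horizontal axis, from 0) held by each of 11 families, with 1 bar per library. Silent modifiers, nearly all Kcng4, took 11.9% in replicate 1 and 16.9% in replicate 2, and Kv3 and Kv4 subunits stayed under 3% in both.

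Kcng4, a silent modifier subunit that forms channels only with Kv2 subunits and a marker gene of type 5 cells, was the member of highest mean level. It had 229 TPM in replicate 1 and 326 in replicate 2, a mean of 277 ± 68.7 (SD, n = 2). The gene lies on chromosome 8, and its rank among all symbols was 421. The other 9 silent modifiers were low. Kcns1 had 4.56 and 1.10 TPM, and Kcnv2 0.61 and 3.80. Kcnf1 was at 0 in replicate 1 and 0.05 TPM in replicate 2. Kcng1, Kcng2, Kcng3, Kcns2, Kcns3 and Kcnv1 were listed at 0 in both libraries, so 1 of 10 silent modifiers was called above 1 TPM. Kcnv2 is known from photoreceptors. Its level lay in a sample in which 8 of 10 rod markers passed, and the part of rod RNA in it was not tested.

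Kcnb2, a Kv2 pore subunit, carries delayed rectifier current and could pair with Kcng4. It had 210.3 TPM in replicate 1 and 175 in replicate 2 (193 ± 24.7, SD, n = 2). Kcng4 and Kcnb2 were close, with a Kcng4 to Kcnb2 ratio of 1.09 in replicate 1 and 1.86 in replicate 2, so Kcng4 was the higher in both libraries. The Kcnb2 gene spans chr1:15287254-15723750 (plus strand). Amigo1, a membrane protein that accompanies Kv2 channels, had 29.4 and 45.2 TPM, and Vapa and Vapb, which tether Kv2 channels at contacts with the endoplasmic reticulum, had 80.3 and 97.2 TPM and 42.2 and 22.1 TPM.

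Of 8 subunits of the EAG, ERG and ELK groups, 2 were called above 1 TPM, and both are ERG subunits. Kcnh6 had 239 and 193 TPM (216 ± 32.5, SD, n = 2). Kcnh2, the ERG gene best known from the heart, had 63.1 and 56.9 TPM (59.97 ± 4.40). The levels of these genes were apart in both libraries, with a Kcnh6 to Kcnh2 ratio of 3.80 and 3.40, a pair chosen after the values were seen. Kcnh7, the third ERG gene, had 8.78 and 2.55 TPM and was not called. The EAG gene Kcnh5 had 0.33 and 5.16 TPM, and Kcnh1 0.06 and 0.72. The ELK genes were at or near 0, with Kcnh8 at 0 and 0.11 TPM, Kcnh4 at 0.12 and 0, and Kcnh3 listed at 0 in both. The Kcnh6 gene spans chr11:106008124-106034549 (plus strand), and no exon of another annotated gene overlaps its exons or those of Kcnh2.

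Among channels opened by calcium or sodium, Kcnma1, the pore subunit of the large-conductance BK channel, had 218 and 207 TPM (212 ± 7.66, SD, n = 2). Kcnn2, an SK channel gene, had 70.2 and 38.01 TPM, and its relative Kcnn1 4.09 and 8.64. Both were called above 1 TPM, whereas Kcnn3 and Kcnn4 were listed at 0 in both libraries. Kcnt1, a sodium-activated subunit, had 26.9 and 15.0 TPM and was called, and Kcnt2 was at 0 in replicate 1 and 1.13 TPM in replicate 2. Kcnu1, a relative of Kcnma1 known from sperm, had 1.55 and 7.25 TPM and was not called. In all, 4 of 8 were called above 1 TPM, and 5 of 8 had at least 1 TPM in both libraries.

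BK channels carry beta and gamma subunits that change their calcium response. Kcnmb4, the beta subunit known from neurons, had 6.99 and 9.94 TPM and was called above 1 TPM, although annotated antisense exons cover 10.7% and 20.8% of its exonic length. Kcnmb1, the beta subunit of smooth muscle, had 3.22 and 1.06 TPM, Kcnmb2 was listed at 0 and at 0.26 TPM, and Kcnmb3 at 0 in both. Kcnma1 exceeded Kcnmb4 by a ratio of 31.1 in replicate 1 and 20.8 in replicate 2. Of 4 gamma subunit genes outside the Kcn names, Lrrc38 had 20.5 and 27.5 TPM, above Kcnmb4 in both libraries. Lrrc26 had 0.38 TPM in replicate 1 and 0 in the other library, Lrrc55 was listed at 0 and at 0.08, and Lrrc52 at 0 in both.

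Of 8 Kv1 subunits, which open at low voltages, 5 were called above 1 TPM. Kcna5 had 101 and 90.8 TPM (96.0 ± 7.37, SD, n = 2). Kcna6 had 45.1 and 99.7 TPM, so that its replicate 2 value reached the range of Kcna5 and its replicate 1 value did not. Kcna2 had 18.2 and 19.9 TPM and Kcna4 10.9 and 12.8. Kcna3 had 19.7 TPM in replicate 1 and 1.5 in replicate 2, and its call rests on a variance that does not hold this disagreement. Kcna7 was listed at 0 and at 0.22 TPM, and Kcna10 at 0 in both. Kcna1, the Kv1 gene of many axons, had 0.15 and 0.03 TPM.

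Neighbouring Kv1 genes differed widely in level. On chromosome 6 Kcna5 (126532551 to 126535412), Kcna1 and Kcna6 (126708329 to 126740674) follow each other on the minus strand with gaps of 104985 and 61945 bases. The outer 2 genes were among the 7 most abundant members, and Kcna1 between them was under 1 TPM in both libraries. On chromosome 3 Kcna3, Kcna2 and Kcna10 lie on the plus strand with gaps of 63076 and 68051 bases and had means of 10.6, 19.0 and 0 TPM. The annotated antisense gene Gm26673 shares 2355 exonic bases with Kcna6 (39.6% of its exonic length) and was listed at 0 in both libraries.

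Kv1 and Kv4 channels carry cytoplasmic subunits. Of the beta subunits of Kv1, Kcnab2 had 52.9 and 55.8 TPM (54.4 ± 2.02, SD, n = 2), Kcnab1 38.5 and 17.8, and Kcnab3 11.3 and 7.46, and all 3 were called above 1 TPM. Kcnab2 exceeded Kcnab1 by a ratio of 1.37 in replicate 1 and 3.13 in replicate 2. Among genes whose proteins accompany Kv1 channels on axons, Cntnap2 had 71.7 and 28.9 TPM and Adam22 92.4 and 27.7, while Lgi1 was listed at 0 in both. The scaffold genes Dlg4, Dlg2 and Dlg1, which bind Kv1 tails, stood at 280 ± 7.88, 102 ± 26.1 and 90.1 ± 22.99 TPM (SD, n = 2). Ank3, the ankyrin that holds KCNQ channels, stood at 394 ± 103 TPM.

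All 3 Kv4 subunits, which carry fast inactivating A-type current, were called above 1 TPM and none above 10 TPM. Kcnd3 had 18.5 and 23.7 TPM and Kcnd2 18.97 and 13.6, so their ranges overlap. Kcnd1 had 2.43 and 17.4. Of the KChIP genes, calcium-binding partners of Kv4, Kcnip4 had 12.6 and 26.5 TPM and Kcnip3 2.85 and 12.5, and both were called above 1 TPM. Kcnip2 had 2.71 and 7.57 TPM and Kcnip1 1.91 and 0.13, and neither was called. The ratio of Kcnip3 to Kcnd2 was 0.150 in replicate 1 and 0.918 in replicate 2. Dpp6, the second kind of Kv4 partner, had 82.8 and 92.6 TPM, above every Kv4 and KChIP gene in both libraries, and its relative Dpp10 had 0.10 and 2.84.

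Of the Kv3 subunits, which repolarise fast-spiking cells, Kcnc1 had 13.95 and 26.4 TPM and was called above 1 TPM. Kcnc2 was at 0 in replicate 1 and 1.05 TPM in replicate 2, and Kcnc4 at 0 in both. Kv3 genes are also known from starburst amacrine cells. The 8 amacrine markers summed to 60.4 TPM in replicate 1 and 95.3 in replicate 2. Gad1 had 0.06 and 10.4 TPM, Gad2 0.11 and 9.94, Tfap2b 0.33 and 20.4, and Pax6 22.3 and 46.5. Tfap2a and Slc32a1 were also higher in replicate 2. Slc6a9 alone was lower there, with 36.6 and 3.12 TPM. Chat, which defines starburst cells, was listed at 0 in both. The part of amacrine RNA in the Kv3 values was not tested.

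Of the KCNQ subunits, the slow non-inactivating channels of the M current, Kcnq5 had 74.0 and 52.97 TPM and Kcnq3 32.8 and 12.5, and both were called above 1 TPM. Kcnq3 was the lower in each library, and the ranges do not overlap. Kcnq1, the epithelial and cardiac member, had 1.17 and 0.45 TPM. The small Kcne subunits that accompany Kcnq1 were near 0. Kcne2 had 0.55 and 0.42 TPM, Kcne1l was listed at 0 and 0.44, Kcne4 at 0 and 0.09, and Kcne1 and Kcne3 at 0 in both. Calmodulin, which sits on KCNQ and SK channels, is encoded by several genes, of which Calm2 stood at 1218 ± 124 TPM and Calm3 at 356 ± 113 (SD, n = 2).

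Of 15 inward rectifiers, 4 were called above 1 TPM. Kcnj14, a strong rectifier of the Kir2 group, had 125 TPM in both libraries (125 ± 0.488, SD, n = 2) and was the fifth member by mean level. The gene spans chr7:45816460-45824782 (minus strand), with no overlapping exon of another gene. Kcnj12, of the same group, had 20.0 and 48.5 TPM and was called as well. The other Kir2 genes were near 0, with Kcnj2 at 0 and 2.15 TPM and Kcnj4 at 0 in both.

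The G protein-gated rectifiers, which open on beta-gamma subunits of G proteins, were led by Kcnj9 with 29.98 and 30.07 TPM (SD 0.0636, n = 2). Kcnj6 had 7.47 and 2.85 TPM, Kcnj3 0.76 and 5.96, and Kcnj5 0.45 and 0.56, and none of these 3 was called. Kcnj9 exceeded Kcnj3 by a ratio of 39.4 in replicate 1 and 5.05 in replicate 2. The annotated gene Gm26794 on the other strand covers 31.1% of the exonic length of Kcnj3 and had 1.85 TPM in replicate 1 and 0 in replicate 2. Of the beta subunit genes, Gnb1 had 45.6 and 109 TPM, Gnb4 13.7 and 12.1, and Gnb2 8.99 and 12.1.

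The pore genes of ATP-sensitive channels were at or near 0 while a regulatory subunit was not. Kcnj11 was at 0 in replicate 1 and 0.59 TPM in replicate 2, and Kcnj8, also known from pericytes, at 0 in both. Abcc8, the sulphonylurea receptor that assembles with Kcnj11, had 15.5 and 22.4 TPM. Abcc9 was listed at 0 and at 0.09. No ratio was formed because a library lists 0. The 5 vascular and pericyte markers summed to 2.32 and 3.23 TPM. Pdgfrb and Cldn5 were at 0 in both libraries, while Pecam1 had 1.8 and 1.2 TPM, Kdr 0.40 and 1.02, and the pericyte gene Rgs5 0.12 and 1.01.

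Kcnj13, a rectifier known from the pigment epithelium, had 29.4 TPM in replicate 1 and 2.28 in replicate 2, a 12.9-fold gap. The exons of Gigyf2, on the opposite strand, cover 49.1% of the exonic length of Kcnj13, and Gigyf2 had 161 and 178 TPM. Whether counting used strand was not given in the sources used here, so reads of these genes may not be told apart. The 4 pigment epithelium markers summed to 7.57 and 4.99 TPM, nearly all of it from Tyr (6.93 and 4.74). Best1 had 0.64 and 0.11 TPM, Rgr 0 and 0.14, and Rpe65 was at 0 in both. Kcnj10, the main rectifier of Muller glia, had 1.43 and 0.56 TPM and its partner Kcnj16 was listed at 0 and at 0.03. Muller glia markers summed to 192 and 290 TPM, most of it from Glul (75.8 and 124) and Clu (85.7 and 79.5). Apoe, Slc1a3 and Dkk3 were also called above 1 TPM. Rlbp1 (2.31 and 3.74 TPM), Aqp4 (0.68 and 6.77) and Sox9 (3.69 and 5.73) were not. Kcnj15 had 0.30 and 0.77 TPM and Kcnj1 was listed at 0 and at 0.20.

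Of 14 two-pore-domain subunits, which give leak current, Kcnk1 and Kcnk3 were the 2 called above 1 TPM, and both were called above 10 TPM. Kcnk1 had 54.9 and 35.1 TPM and Kcnk3, an acid-sensitive subunit, 29.98 and 48.7. Their ranges overlap and their order differed between the libraries. Kcnk6 had 3.94 and 3.32 TPM and was not called. Kcnk9 had 0.38 and 0.81 TPM, Kcnk18 0.29 and 0, Kcnk2 0 and 0.28, and Kcnk4 0 and 0.27. Kcnk5, Kcnk7, Kcnk10, Kcnk12, Kcnk13, Kcnk15 and Kcnk16 were listed at 0 in both libraries. Kcnrg, a soluble protein that can hold back Kv1 assembly, had 2.65 and 9.71 TPM and was not called.

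**Figure D3:**
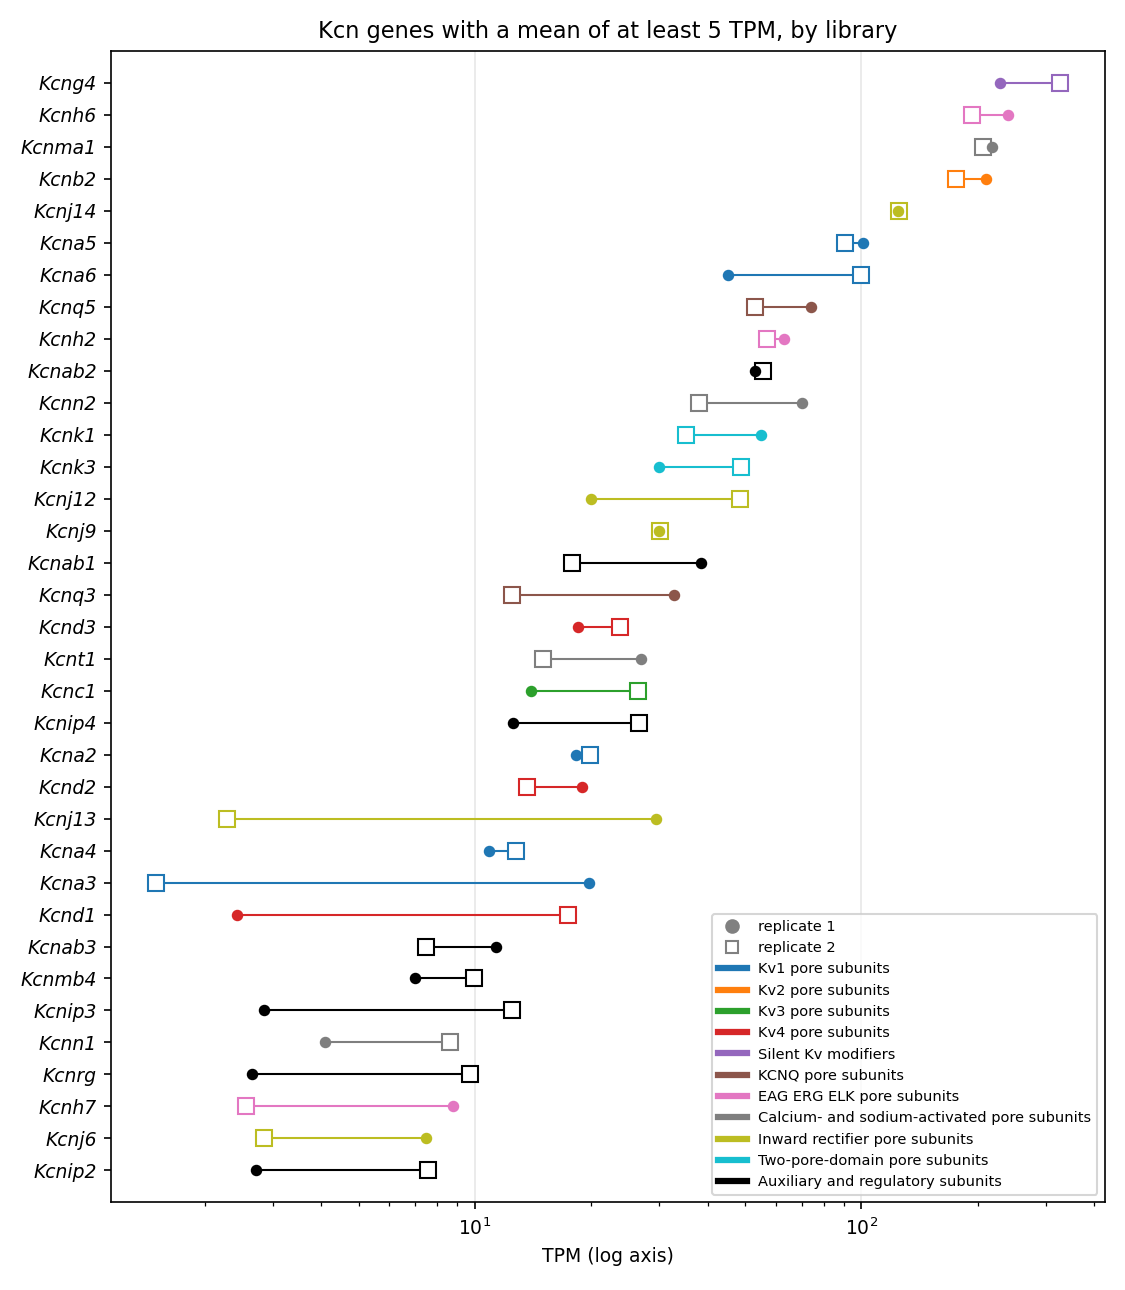
TPM (log axis) of 35 of the 38 Kcn genes whose mean reached 5 TPM (the others are not shown) in replicate 1 (filled circle) and replicate 2 (open square), joined by a line and coloured by family. Kcng4, Kcnh6, Kcnma1 and Kcnb2 lie above all other members in both libraries, while Kcnj13 and Kcna3 span more than 10-fold.

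The order at the top was only partly separated. In replicate 1 Kcnh6 was highest and Kcng4 second, and in replicate 2 Kcng4 was highest, then Kcnma1 and Kcnh6. The range of Kcng4 (229 to 326 TPM) overlapped that of Kcnh6 (193 to 239) and lay above those of Kcnma1 and Kcnb2. Kcnh6 overlapped Kcnma1 and Kcnb2, and Kcnma1 (207 to 218) overlapped Kcnb2 (175 to 210.3). All 4 ranges lay above the 125 TPM of Kcnj14, and Kcnj14 above both values of Kcna5. With 2 libraries a sign test could not reach the threshold, and none was made.

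Abundant members matched closely between libraries and rarer ones did not. All 5 members of 100 to 1000 TPM lay within 2-fold, where 90.7% of all genes of that level did. At 10 to 100 TPM 16 of 23 members lay within 2-fold (69.6%), beside 70.4% of all genes. At 1 to 10 TPM 3 of 20 did (15%), beside 38.3% of all genes. The SD of a single library for members was 0.207, 0.816 and 1.06 log2 units in these classes, beside 0.635, 0.855 and 1.16 for all genes. The median difference, replicate 2 minus replicate 1, was 0.12 for members above 0 and -0.20 for all genes above 0 on the log2(TPM + 1) scale. Of 48 members with a mean of at least 1 TPM, 25 were higher in replicate 2 and 23 in replicate 1.

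Among members of at least 10 TPM, Kcnj13 and Kcna3 alone differed by more than 4-fold, both higher in replicate 1. Over members of any level, the next largest falls to replicate 2 were those of Kcnh7 (-1.46), Kcns1 (-1.40) and Kcnip1 (-1.36), each with a mean under 10 TPM. The largest differences in the other direction were those of Kcnd1 (2.42), Kcnh5 (2.21), Kcnj3 (1.98), Kcnip3 (1.81) and Kcnu1 (1.69), also with means under 10 TPM. These are values of 2 libraries, not changes between conditions. Of the other called Kv1 genes, Kcna6 differed by 1.13, Kcna5 by -0.16, Kcna4 by 0.21 and Kcna2 by 0.12, and of the other Kv4 genes, Kcnd3 differed by 0.34 and Kcnd2 by -0.45.

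**Figure D4:**
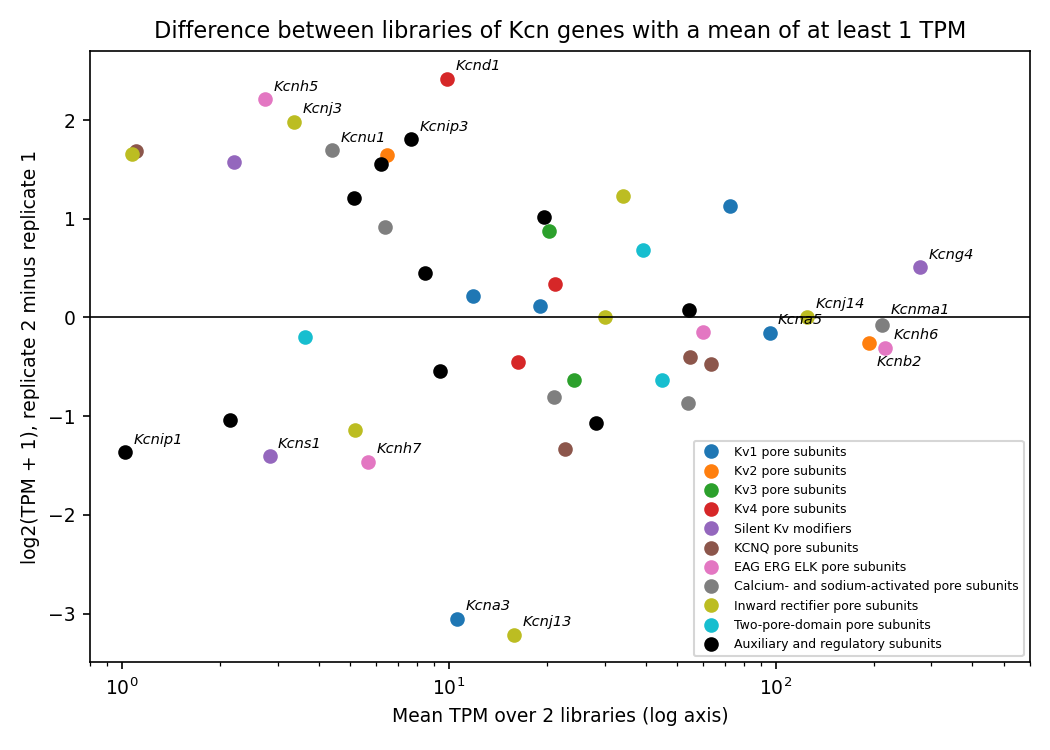
Difference in log2(TPM + 1) between libraries (vertical axis, replicate 2 minus replicate 1) against mean TPM (log axis) for the 48 Kcn genes whose mean reached 1 TPM, 1 point per gene, coloured by family. Points of 90 TPM or more lie between -0.31 and 0.51, and Kcnj13 and Kcna3 fall to -3.21 and -3.05.

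Zeros were unevenly shared between the libraries. Of the 17 members listed at 0 in a single library, 15 were at 0 in replicate 1 and 2 in replicate 2, whereas over all symbols 1993 were at 0 in replicate 1 alone and 1938 in replicate 2 alone. Their value in the other library was 1 TPM or more in 4 cases, among them Kcnj2, Kcnt2 and Kcnc2, each at 0 in replicate 1. Depth is unknown, so a 0 gives no upper limit on a level. Of the 25 partner genes outside the Kcn names, which were listed with knowledge of earlier results of these data, 19 were above 1 TPM and 15 above 10 TPM by the same test, and Lgi1 and Lrrc52 were at 0 in both libraries.

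Annotation limits some of these values. Exons of a gene on the opposite strand overlap those of 26 of the 94 members, and of 12 of the 28 members whose mean reached 10 TPM. The overlap of Kcnma1 is 5.98% of its exonic length, and Kcng4, Kcnh6, Kcnb2, Kcnj14 and Kcna5 have none.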

How the data were processed

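The authors deposited 1 table of TPM values per gene symbol, with a column per library. RSEM 1.2.28, TopHat2 2.0.10 and mm10 were used per the submitters' processing notes, which give no roles. Per the labels' protocols, an amplification kit (NuGEN Ovation V2) was used. Annotation release, filters and strand were not given in the sources used here. TPM keeps no depth, so precision is that of 2 libraries, which the series' design text calls biological replicates without saying how many animals each came from. The replicate 1 column has exchanged letters in its name and was matched by its number. Mitochondrial genome RNA took 17.3% of TPM in replicate 1 and 24.6% in replicate 2.

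Levels above 1 or 10 TPM were tested on log2(TPM + 1) with limma 3.58.1 in R 4.3.3 (intercept only, variance trend, one-sided, adjusted p under 0.05 over 19968 genes above 0). limma estimated an infinite prior, so each gene took the variance of the trend, and single adjusted p-values are not printed. A simulation of these 19968 genes, scored for calls above 1 TPM only, recovered 84% of genes placed at 4 TPM and 100% of those placed at 16. Calls above 10 TPM were not simulated. It gave every gene the spread usual at its level, as the fit assumes. The recovery therefore does not cover genes whose libraries disagree more, such as Kcnj13, Kcna3 and Kcnd1. Python 3.11.15 with pandas 2.3.3 and matplotlib 3.10.9 computed the rest. Coordinates and exon overlaps are from GENCODE M21. The rule for printed values took members of at least 5 TPM, the extremes of each family, the 5 largest differences per direction and members at 0 in 1 library only and at 1 TPM or more in the other. Other members are given beyond it, and some genes that it takes are not reported here. Members, lists and tests were chosen with earlier results of these data known.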

Additional observations from a re-analysis of the deposited data

How the results depend on the processing

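Across 9 limma fits (other pseudocounts, filters, variance settings and scalings), 27 to 39 members were above 1 TPM and 13 to 24 above 10 TPM. Of the 33 members called above 1 TPM, 27 were called in every fit, and Kcnj13, Kcna3, Kcnd1, Kcnmb4, Kcnip3 and Kcnn1 were lost in at least 1. Above 10 TPM, 13 were called in every fit, and 5 were lost in at least 1, among them Kcna6, Kcnk3, Kcnj12 and Kcnab1. The lowest counts came with all genes of the table tested. With a single library and no test, 45 to 49 members were at or over 1 TPM and 29 at or over 10 TPM (29 without replicate 1 and 29 without replicate 2). The median level over members with a mean of at least 1 TPM was 4.18, because fewer low genes enter. Values rescaled without the mitochondrial genome were 1.22 to 1.31 times as high for the 38 members of at least 5 TPM. Of 10 fixed subunit pairs, 8 gave a ratio, because Kcnj11 and Kcnk2 were at 0 in a library. Each of these 8 kept its sign in both libraries, but not its size. Kcng4 to Kcnb2 had a log2 ratio of only 0.12 in replicate 1, and Kcnip3 to Kcnd2 only -0.12 in replicate 2. No paired analysis was possible because the series holds 1 group.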
